A study of Homo sapiens with 2 samples.

Results

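Genes that are recurrently altered in hepatocellular carcinoma (HCC), or that carry growth factor signals there, were examined for RFX6 occupancy in HCC cells. The set held 55 genes, of which 54 were protein-coding, out of 20037 protein-coding genes in the RefSeq gene table, and 1 was the pseudogene EEF1A1P5. Genes were chosen by name for their role in the disease, but with earlier results of these data known, and all 55 were found in the table. Wnt and cell cycle genes were left out, apart from RB1 and CDKN2A. For each, the deposited list of ChIP-seq peak intervals was searched within 1 kb of either gene end and in the gene body. An interval was placed by its midpoint.

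The chromatin came from MHCC-97H, an established human HCC cell line, in which RFX6 with an HA tag had been overexpressed from a plasmid. Proteins and DNA had been crosslinked, and the tagged protein was pulled down with an anti-HA antibody. The series comprises 1 HA-RFX6 ChIP library and 1 input library from the same line, without replicates, and only the ChIP library had a peak list here. A tagged protein made in excess may occupy sites that the natural amount does not, and a peak list holds no expression values with which to check the cell type.

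RFX6 belongs to the regulatory factor X family, whose members bind DNA through a winged-helix domain, recognise the X-box, and are best known for directing ciliary genes and, in the case of RFX6, the endocrine pancreas. The driver genes of HCC fall into a few circuits. Telomerase and the p53 and RB brakes set how long a cell can divide, the SWI/SNF remodellers move nucleosomes, and KEAP1 with NFE2L2 sets the antioxidant response. Receptor tyrosine kinases pass growth factor signals to RAS and PI3K, whereas TGF-beta, Hippo, JAK-STAT and NOTCH signals reach the nucleus through their own transcription factors or coactivators.

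The list held 5019 distinct intervals on chromosomes 1 to 22 and X, with a median width of 272 bp. Each carried a whole-number score given by the authors, whose meaning is not stated and which had a median of 30, quartiles of 22 and 39 and a range from 13 to 170. Ranks by score run from 1, the highest, to 5019, and ties take the best rank. Read depth is unknown, and too few reads would leave a gene without an interval in the same way as a lack of occupancy. Coordinates are given as in GRCh38, although the submitters' processing notes name GRCh37, because 60.8% of midpoints lay within 1 kb of a protein-coding gene end of GRCh38.p14, whereas 7.65% or 8.11% did so when all intervals were shifted by 20 kb to lower or higher coordinates.

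An interval lay within 1 kb of a gene end at 19 of the 55 driver genes. Among the 54 protein-coding ones this was 35.2% (95% Wilson interval 23.8% to 48.5%), while the share over all protein-coding genes was 15.5%. A further 5 genes had an interval only in the body (9.26%, against 4.06% of all protein-coding genes), so that 24 genes had any interval (44.4%, against 19.5%). The remaining 31 had none. Driver genes were long, with a median length of 59.9 kb compared with 24.1 kb over all protein-coding genes. Among genes of 20 to 200 kb, 17 of 40 driver genes had an end interval (42.5%), compared with 18.1% of all 9615 protein-coding genes of that length. The Wilson intervals cover the counting of genes only. As the driver genes were picked with results of these data known, the shares are given as a description, with no test.

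**Figure D1:**
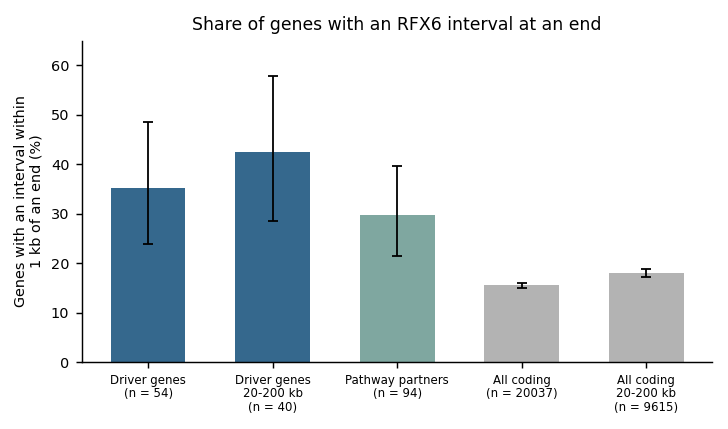
Percentage of genes with an RFX6 peak interval within 1 kb of either gene end, for the driver genes, for their pathway partners and for all protein-coding genes, with the number of genes under each bar. Error bars are 95% Wilson intervals, and the bars stand at 35.2% and 42.5% for driver genes, 29.8% for partners and 15.5% and 18.1% for all genes.

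Next, the side of the gene was examined. A start could be assigned to 47 driver genes from the strand in a RefSeq promoter table. Of these, 17 had an interval centred no farther than 1 kb from it (36.2%), compared with 15.1% of all 15842 protein-coding genes with an assigned start. At the opposite end, HRAS and FGFR4 alone had an interval as near, which was 4.26% of the 47 compared with 1.15% of all. Both genes had start intervals as well. The 24 start intervals of the driver genes had a median midpoint 118.5 bp downstream of the start, and 10 of them were centred upstream (41.7%). For all protein-coding genes the corresponding values were 77 bp and 39.2%. The position of the driver gene intervals around the start was thus close to that of the list as a whole.

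Several driver genes carried more than 1 interval at an end. There were 29 end intervals at the 19 genes, with 7 genes holding at least 2 (36.8%) and 3 genes, SMAD3, HRAS and FGFR4, holding 3 (15.8%). Over the 3100 protein-coding genes with an end interval, 15.1% held at least 2 and 1.65% held 3 or more. The scores were of similar size. Their median was 29 (95% interval from the ordered scores 24 to 40) over the driver gene end intervals and 32 over all 3054 intervals at protein-coding gene ends, and the median of the best score per gene was 33 for both the 19 driver genes and the 3100 genes.

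**Figure D2:**
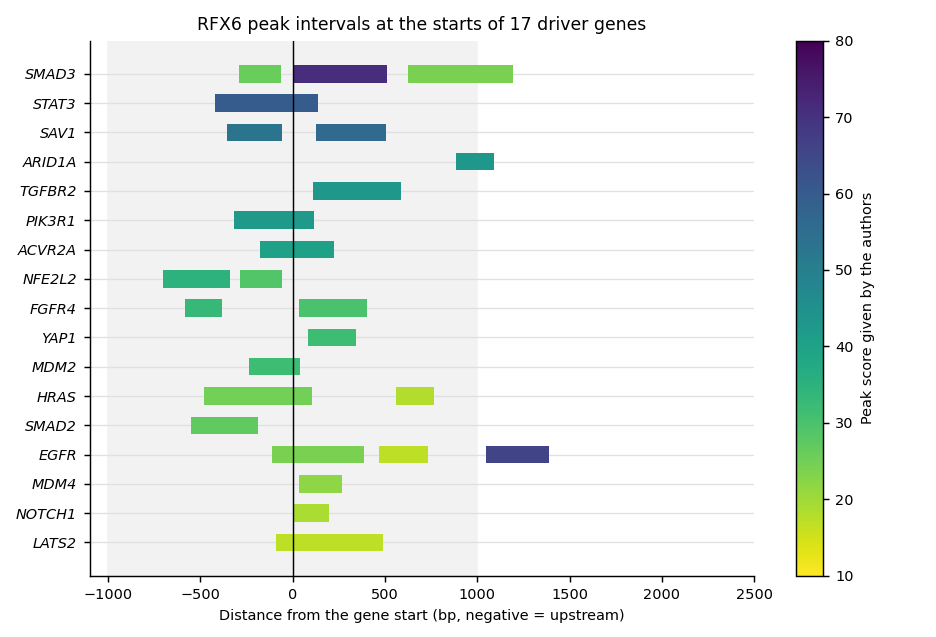
RFX6 peak intervals at the 17 driver genes with an assigned start and an interval within 1 kb of it, drawn to scale as bars along the distance from the start in bp, with colour giving the score and the shaded band marking 1 kb to each side. Genes are ordered by their best end score, from 71 at SMAD3 to 17 at LATS2, and the EGFR bar beyond 1 kb has a score of 66.

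The TGF-beta and activin pathway was the group with the largest number of genes with an end interval, 4 of 6. Its type II receptors are TGFBR2 and ACVR2A, its type I receptor here is TGFBR1, SMAD2 and SMAD3 are the receptor-activated transcription factors, and SMAD4 is their common partner. The share over all protein-coding genes was 15.5%. The groups are small and were set with earlier results known, and Hippo genes and growth factor receptors followed with 3 genes each. The lead includes TGFBR2, whose interval was nearer to the end of another protein-coding gene. At SMAD3, the interval with the highest score of all driver gene end intervals, 71 (rank 128), ran from 5 to 513 bp downstream of the start, at chr15:67065607-67066115. It was listed on 2 lines, the other with a score of 35. An interval with a score of 26 lay upstream of it, from -290 to -64 bp relative to the start, and an interval with a score of 24 lay downstream, centred 908 bp after the start. The 3 intervals spanned 1483 bp and covered 1305 bp of it.

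At TGFBR2, an interval with a score of 43 (rank 988) was found at chr3:30606467-30606943, centred 349 bp after the gene start and 104 bp after another annotated start. The nearest protein-coding end was that of LOC105377015, which the interval overlapped. At ACVR2A, an interval of 400 bp with a score of 40 (chr2:147844341-147844740) covered the gene start, with its midpoint 23 bp inside. The SMAD2 interval, with a score of 27, was centred 368 bp upstream at chr18:47931058-47931422. TGFBR1 had an interval with a score of 39 in the body, 1597 bp after the gene start (chr9:99105135-99105354). The promoter table holds 8 starts for TGFBR1, and the interval was centred 131 bp from one of them. SMAD4 had none, and its nearest interval was 111.71 kb away. 

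In the Hippo pathway, in which the kinases STK3 and STK4 with the scaffold SAV1 activate LATS1 and LATS2 to restrain the coactivator YAP1, 3 of 6 genes had an end interval. SAV1 had 2 of nearly equal score on either side of its start. The downstream one scored 56 (rank 401, chr14:50667802-50668178) and the upstream one scored 53 (rank 521, chr14:50668363-50668659). YAP1 had an interval with a score of 32 from 81 to 343 bp after its start (chr11:102110528-102110790). LATS2 had a wide interval of 578 bp across its start, at chr13:21061098-21061675, but its score was only 17 (rank 4359). LATS1 had an interval in its body instead, 27079 bp from the start, which was the widest at any driver gene (1091 bp, score 37, chr6:149690477-149691567). STK3 and STK4 had none.

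The sequences upstream of the start are shown for 7 genes, since they let the bases inside the intervals be read. An interval does not show which of its bases RFX6 bound. They are from driver genes with an end interval over part of the 250 bases before the start, in order of the highest score of any interval from 250 bases before to 50 after the start. At SMAD3 that interval lay after the start, and the capitals mark the one with a score of 26. The sequences are from RefSeq, GRCh38.p14. They run 5′ to 3′ on the strand of the gene and end at the base before the start. Capitals mark the bases inside a deposited interval.
SMAD3, chr15:67065352-67065601, plus strand: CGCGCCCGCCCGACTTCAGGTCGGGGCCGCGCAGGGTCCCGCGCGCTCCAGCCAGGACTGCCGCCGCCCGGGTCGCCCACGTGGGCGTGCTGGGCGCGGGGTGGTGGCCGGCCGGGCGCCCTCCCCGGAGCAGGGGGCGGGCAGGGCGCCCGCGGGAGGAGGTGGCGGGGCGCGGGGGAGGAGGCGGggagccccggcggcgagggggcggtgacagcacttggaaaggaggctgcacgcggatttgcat
STAT3, chr17:42388443-42388692, minus strand: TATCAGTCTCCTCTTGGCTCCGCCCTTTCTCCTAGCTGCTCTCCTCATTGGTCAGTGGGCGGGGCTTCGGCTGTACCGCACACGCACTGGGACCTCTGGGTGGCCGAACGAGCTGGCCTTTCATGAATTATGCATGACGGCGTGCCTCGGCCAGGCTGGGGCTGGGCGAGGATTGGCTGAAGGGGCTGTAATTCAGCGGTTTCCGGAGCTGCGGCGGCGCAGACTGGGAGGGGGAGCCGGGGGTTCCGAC
SAV1, chr14:50668307-50668556, minus strand: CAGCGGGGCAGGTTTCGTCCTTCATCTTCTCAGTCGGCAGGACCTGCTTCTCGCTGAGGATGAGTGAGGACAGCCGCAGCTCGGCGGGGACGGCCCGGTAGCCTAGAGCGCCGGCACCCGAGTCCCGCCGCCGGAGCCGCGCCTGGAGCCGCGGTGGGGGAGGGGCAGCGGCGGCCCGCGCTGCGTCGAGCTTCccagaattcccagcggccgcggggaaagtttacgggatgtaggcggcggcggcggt
PIK3R1, chr5:68215506-68215755, plus strand: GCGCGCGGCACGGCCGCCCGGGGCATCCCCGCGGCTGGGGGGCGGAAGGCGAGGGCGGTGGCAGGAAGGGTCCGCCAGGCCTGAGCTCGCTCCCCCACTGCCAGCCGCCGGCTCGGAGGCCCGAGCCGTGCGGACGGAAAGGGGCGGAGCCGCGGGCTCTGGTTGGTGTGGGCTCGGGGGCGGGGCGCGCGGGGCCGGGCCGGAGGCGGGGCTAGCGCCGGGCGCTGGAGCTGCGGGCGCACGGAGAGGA
MDM2, chr12:68807922-68808171, plus strand: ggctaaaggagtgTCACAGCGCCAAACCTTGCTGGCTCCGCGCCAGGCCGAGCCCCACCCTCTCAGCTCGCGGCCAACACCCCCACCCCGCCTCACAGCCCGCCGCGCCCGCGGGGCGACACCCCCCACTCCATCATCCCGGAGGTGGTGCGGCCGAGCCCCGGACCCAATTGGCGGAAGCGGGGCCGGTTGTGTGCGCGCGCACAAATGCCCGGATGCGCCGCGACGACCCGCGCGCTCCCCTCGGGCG
NFE2L2, chr2:177264728-177264977, minus strand: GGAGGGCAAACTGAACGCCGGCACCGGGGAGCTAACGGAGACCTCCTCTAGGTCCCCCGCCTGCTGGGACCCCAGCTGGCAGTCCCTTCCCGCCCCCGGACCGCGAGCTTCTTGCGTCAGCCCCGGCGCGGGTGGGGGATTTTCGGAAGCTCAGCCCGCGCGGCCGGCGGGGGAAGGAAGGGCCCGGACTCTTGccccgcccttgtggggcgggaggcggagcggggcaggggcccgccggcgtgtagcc
SMAD2, chr18:47930873-47931122, minus strand: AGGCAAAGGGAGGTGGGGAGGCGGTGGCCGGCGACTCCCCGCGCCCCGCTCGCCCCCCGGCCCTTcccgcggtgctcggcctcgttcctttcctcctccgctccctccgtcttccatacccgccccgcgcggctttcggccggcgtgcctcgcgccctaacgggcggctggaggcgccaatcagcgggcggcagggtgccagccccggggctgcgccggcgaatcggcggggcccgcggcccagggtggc

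The whole stretch was inside the interval at STAT3 and PIK3R1. At MDM2 it was 237 of 250 bases, at SAV1 and NFE2L2 194, at SMAD3 187 and at SMAD2 65. All were rich in G and C, from 64.4% at STAT3 to 81.6% at PIK3R1.

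STAT3, the transcription factor that carries interleukin-6 signals, was the only one of 4 JAK-STAT genes with an interval. This interval scored 60 (rank 304), with 45 on its other line, and extended from -418 to 139 bp relative to the start (chr17:42388303-42388860). The kinase JAK1, the receptor subunit IL6ST and the inhibitor SOCS1 had none, with the nearest intervals at 80.22, 762.23 and 24.34 kb. In the PI3K-AKT-TSC group, PIK3R1, the regulatory subunit of PI3K, had an interval with a score of 42 across its start (rank 1069, chr5:68215441-68215873). AKT1 had 2 intervals in its body, with scores of 53 and 32, at 3284 and 11013 bp from the start. PIK3CA, the catalytic subunit, AKT2, and the TSC1 and TSC2 brakes on mTOR had none. One of 2 NOTCH receptors, NOTCH1, had an interval just downstream of its start with a score of 19 (chr9:136545849-136546048). For NOTCH2, the nearest interval was 106.63 kb away.

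Among the genes that set the p53 response, both inhibitors of p53 had an interval at the start. The MDM2 interval scored 32 and ran from -237 to 40 bp relative to the start (chr12:68807935-68808212), while the MDM4 interval scored 22 and ran from 34 to 267 bp after it (chr1:204516440-204516673). TERT, the catalytic subunit of telomerase, had no interval within 1 kb of an end. Its intervals lay in the body, 3146 bp from the start with a score of 42 (chr5:1291813-1292031) and 6126 bp from the start with a score of 19 (chr5:1288697-1289188). Each overlapped an annotated gene of its own, LOC124905596 and LOC107987433. RB1 and CDKN2A had none. NFE2L2, which switches on antioxidant genes, had 2 intervals upstream of its start, with scores of 29 (chr2:177264784-177265012) and 35 (chr2:177265065-177265429). The nearest interval to KEAP1, its inhibitor, was 54.34 kb away.

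Of 6 genes for chromatin remodelling and BAP1, 2 had an interval. At ARID2, a subunit of the PBAF remodeller, the interval scored 58 (rank 360) and was centred 482 bp outside the low-coordinate end (chr12:45729010-45729438). At ARID1A, a subunit of the BAF remodeller, the interval scored 43 (chr1:26696900-26697105) and was centred 987 bp inside the start, close to the limit of 1 kb. The end of LOC124900417 was nearer to it. ARID1B, PBRM1, the ATPase SMARCA4 and the deubiquitinase BAP1 had none. PBRM1 and BAP1 shared their nearest interval, which was 509.76 and 365.4 kb away.

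Growth factor receptors had an end interval at 3 of 9 genes. EGFR had 4 intervals in all. The one across its start scored 24 on one line and 13 on the other (chr7:55018907-55019402), and the next scored 17 (chr7:55019484-55019750). The strongest, with a score of 66 (rank 184, chr7:55020066-55020407), was centred 1219 bp after the start, so that it counted as a body interval. These 3 spanned 1501 bp. The last, with a score of 15, lay 167222 bp after the start and overlapped EGFR-AS1. For ARID1A at 987 bp and EGFR at 1219 bp, the place thus turned on the limit of 1 kb.

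FGFR4, the receptor through which FGF19 acts on the liver, also had 4 intervals. Their scores were 33 and 30 near the start (chr5:177086331-177086530 and chr5:177086949-177087319), 30 in the body and 27 beyond the far end, which put all 4 between the quartiles of the list. IGF2R, which removes IGF2, had an interval in the body with a score of 39, 8315 bp from the start. ERBB2, ERBB3, MET, KDR and IGF1R had none, nor did any of the 3 growth factors, HGF, FGF19 and VEGFA. FGFR4 had intervals while its ligand FGF19 did not, and the nearest one to FGF19 was 22.95 kb away.

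Of 5 RAS and MAP kinase genes, HRAS alone had intervals, 3 of them. They scored 25 across the start (chr11:535469-536057), 18 at 663 bp after it (chr11:534809-535017) and 29 near the far end (chr11:532717-532916). HRAS is 3.33 kb long and its intervals also overlapped LRRC56, so that the gene they belong to cannot be told apart by position. NRAS, BRAF, the kinase RPS6KA3 and the RAS inhibitor NF1 had none.

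FGFR1 had 2 weak intervals at its high-coordinate end, with scores of 15 and 17. They were centred 86 bp inside and 187 bp outside that end. Together with LATS2 (17) and NOTCH1 (19), FGFR1 was among the 3 driver genes whose end scores were all below 20. In the whole list, 15.4% of intervals scored below 20. If the score were a Phred-scaled q-value, 20 would equal the threshold of 0.01 in the methods and these intervals would miss it, but the sources used here do not say what the score is.

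**Figure D3:**
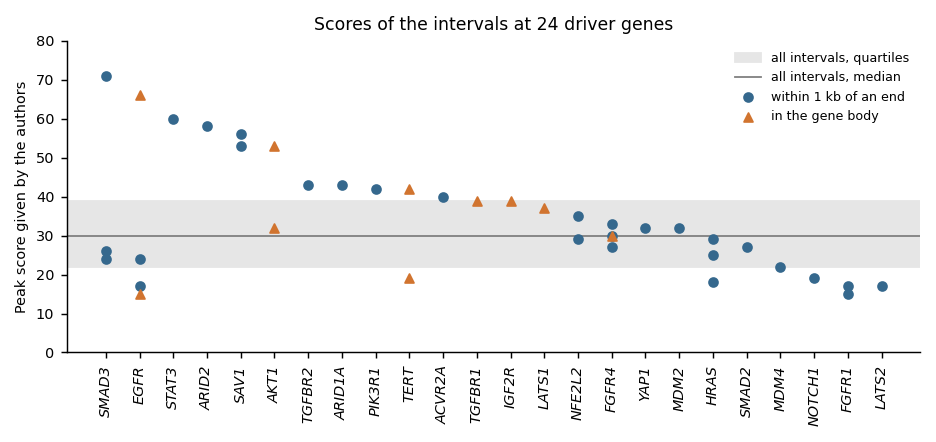
Peak scores of all intervals at the 24 driver genes that had any, with 1 point per interval, circles for intervals within 1 kb of a gene end and triangles for intervals in the body. The grey band and line give the quartiles (22 and 39) and the median (30) of all 5019 intervals, and 12 of the 19 genes with an end interval reach at least 30 there.

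In the gene bodies, 10 intervals were found at 7 driver genes. This was 1.86 per Mb of gene body farther than 1 kb from the ends, compared with 1.23 per Mb over all protein-coding genes. The driver gene rate rests on few intervals in 5.39 Mb and no range was computed, so the 2 rates cannot be told apart here. One interval of EGFR (1219 bp after the start) and that of TGFBR1 (1597 bp) lay just past the limit of 1 kb. Scores of the 10 body intervals had a median of 38 and ranged from 15 to 66. Only the TGFBR1 interval was within 1 kb of a start of its gene in the promoter table. The AKT1 interval with a score of 53 came next, 1137 bp from an internal start.

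Of the 31 driver genes with no interval, 14 were more than 100 kb from the nearest one, and 4 were within 10 kb. Their distances ranged from 1.89 kb at STK3 to 3440 kb at RPS6KA3 on chromosome X, with a median of 80.2 kb. HGF (1564.3 kb) and RB1 (962.53 kb) were also far from any interval. The nearest interval to the pseudogene EEF1A1P5 was 37.82 kb away and was also the nearest to TSC1. EEF1A1P5 shares sequence with EEF1A1, and how reads that map to several places were handled is not given in the sources used here.

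**Figure D4:**
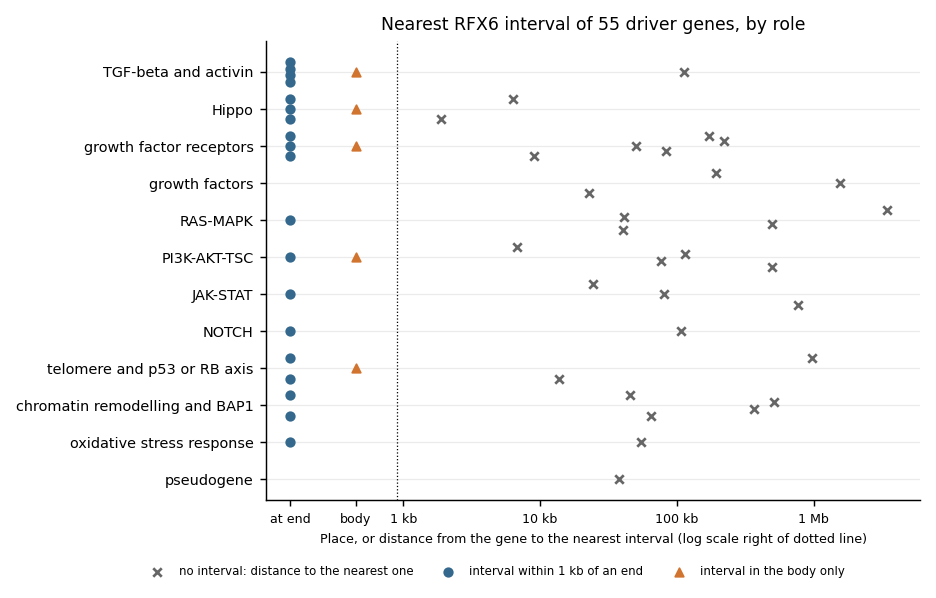
Place of the nearest RFX6 interval for all 55 driver genes, grouped by role, with circles for an interval within 1 kb of a gene end, triangles for an interval in the body only, and crosses for genes with none at their distance to the nearest interval on a log scale. The TGF-beta group has 4 circles, and the growth factors have crosses only, from 22.95 kb to 1564.3 kb.

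To see whether other genes of these pathways had intervals, a list of 94 protein-coding partners was examined, none of which is a driver gene of the set. An end interval was present at 28 of them (29.8%, 21.5% to 39.7%), against 15.5% of all protein-coding genes. A further 4 had one only in the body, and 62 had none. As the partners were also picked with earlier results of these data known, the share with an end interval is a description only. It was not matched for gene length. The highest score was 95 (rank 17) at TEAD4, a DNA-binding partner of YAP1. CUL3, the ubiquitin ligase scaffold that works with KEAP1, had a score of 72, and DLL4, a NOTCH ligand, had 66. In the RAS pathway, PTPN11 (56), GAB1 (35) and ARAF (27) were among those with an end interval. In the PI3K and mTOR branch these were RICTOR (56), PIK3R2 (37) and MTOR (19).

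TGF-beta partners with an end interval were SKIL (50), BMPR1A (27) and ACVR2B (21), and those of the Hippo pathway were WWC1 (45) and NF2 (39) besides TEAD4. Among the partners with none were TGFB1, TGFB2, SMAD7 and SKI for TGF-beta, and TEAD1, TEAD2, TEAD3 and WWTR1 for Hippo. JAK2 (35) and IL6R (22) were among those found for JAK-STAT, JAG2 (47) and MAML1 (37) for NOTCH, and MAFG (45) for the antioxidant response. The remodeller subunits were ACTL6A (61), BRD9 (56) and SMARCC1 (34), and the BAP1 partners were FOXK2 (27), ASXL1 (25) and HCFC1 (17). Thus CUL3 and NFE2L2 had intervals where KEAP1 had none. The noncoding telomerase component TERC had none, nor had the telomere partners POT1, TERF1, TERF2, TINF2 and DKC1.

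Finally, the promoter sequences were compared. Windows of 300 bases, from 250 before to 50 after the start, were matched for 47 driver genes, whereas ARID2, BAP1, EEF1A1P5, ERBB3, FGF19, FGFR1, STK3 and VEGFA were not matched. For genes with several starts, the one nearest to the gene end was used. The start used equalled the gene end for 41 of the 47, but not for ACVR2A, BRAF, PIK3CA, RB1, RPS6KA3 and TSC1. For ACVR2A it lay 512 bp inside the gene. For RB1 it was nearly the length of the gene (178 kb) away from the gene start. The RB1 window (GC content 38.3%, 0 CpG) is therefore not at the gene start, but it is counted with the driver genes with no interval. The median GC content was 75.0% in the 17 driver promoters with an end interval and 66.7% in the 25 of driver genes with no interval. Over all protein-coding genes it was 68.0% with an end interval, 61.0% with no interval and 62.7% in total. The number of CpG dinucleotides per window had medians of 35 and 28 in these driver promoters, compared with 30 and 20 for all protein-coding promoters with an end interval and with none. ACVR2A (41.3%) and TGFBR2 (42.3%) had an end interval and the lowest GC content of the 17, while IGF1R (79.7%) and SMARCA4 (81.3%), each with 55 CpG, had none. An interval overlapped the window at 13 of the 17, but not at ACVR2A, TGFBR2, ARID1A and YAP1. The low values of ACVR2A and TGFBR2 are therefore not those of bases inside an interval.

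**Figure D5:**
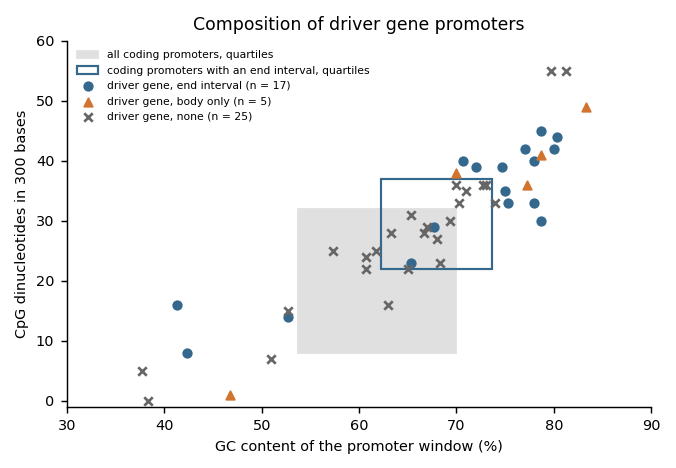
GC content (%) against the number of CpG dinucleotides in the 300-base promoter window of 47 driver genes, with 1 point per gene and symbols for the place of its interval. The filled box gives the quartiles of all protein-coding promoters and the open box those with an end interval, and the 17 circles have a median GC content of 75.0%, with ACVR2A and TGFBR2 at the lowest values. The intervals of ACVR2A and TGFBR2 lie outside their windows, and the window of RB1 lies far from its gene start.

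RFX proteins bind the X-box, whose arms read GTTGCC or a similar run. On either strand, GTTGCC was in 0 of the 47 driver promoters (upper Wilson bound 7.56%), compared with 12.6% of all 15842 protein-coding promoters and 12.5% of those with an end interval. When all annotated starts were used, 1 of 81 driver windows held it, at an internal start of SMAD3. The looser GTTNCC, which includes GTTGCC, was in 13 of the 47 (27.7%), counting the distant RB1 window, compared with 45.8% of all. Read in that direction, all driver matches were GTTTCC or GTTCCC, apart from that of STK4 (GGTAAC on the other strand). A match to GTTNCC alone does not show an X-box arm. Of the 17 driver promoters with an end interval, GTTNCC was in those of MDM4, STAT3 and YAP1 (17.6%). In the STAT3 sequence printed above it reads GTTTCC and begins 52 bases before the start, inside the interval. At MDM4 and YAP1 it begins 65 and 137 bases before the start, outside their intervals. At STAT3 and MDM4 the letters continue as GTTTCCGG, so that the match shares bases with an ETS core (CCGGAA) on the other strand. A facing pair of GTTNCC and GGNAAC, with 0 to 3 bases between them, was in 0 driver promoters and in 0.764% of all. The GC box GGGCGG was in 76.5% of the 17, and in 76.9% of all promoters with an end interval. CCAAT was in 29.4% and 36.6%, and CCGGAA, an ETS core, in 17.6% and 30.5%. These 3 runs and the use of all starts were added after the data had been seen, and none of these runs contains another. The absence of a run of letters from a window says nothing about the binding of RFX6.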

How the data were processed

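ChIP-seq had been done on 1 HA-RFX6 ChIP library and 1 input library of MHCC-97H cells, grouped here by their titles. The authors called peaks with MACS (version 2.1.0.2 in the submitters' notes), and their methods state a q-value threshold of 0.01. The aligner, the use of the input as control and the handling of reads with several matches are not given in the sources used here. The deposited file lists intervals with a score, which has no stated meaning and was used only to rank intervals. It had 6214 lines. Quotation marks and digit separators in 1 line were removed, repeated lines were joined with the highest score kept, and 3 mitochondrial intervals were left out, leaving 5019. Starts were taken as 0-based and are printed 1-based.

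Gene ends came from the RefSeq table of GRCh38.p14 (59679 genes), and starts and promoter sequences from a RefSeq promoter table of that build. The latter start equals the gene end for 87.2% of the protein-coding genes matched. No genome sequence was used, so the intervals' own sequences were not searched. Every driver gene with an interval was named, and of the partners those with an end interval, apart from some that are not reported here. Driver genes, their roles and the partners were chosen with earlier results of these data known. There was no test between groups, as 1 library has no replicate error. Interval placement was checked on simulated intervals with known places. Alternatives were scores of at least 20 or 30, windows of 0.5, 2 and 5 kb, any overlap of at least 1 bp, merging within 1 kb, start ends alone, assignment to the nearest gene end, and a looser motif. Python 3.11.15, numpy 2.4.6, pandas 2.3.3, scipy 1.17.1 and matplotlib 3.10.9 were used.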

Additional observations from a re-analysis of the deposited data

How the results depend on the processing

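Of 35 alternative values, 32 stayed within 1.5 times the reported count or within its interval. With a score of at least 30, the number of driver genes with an end interval fell from 19 to 12, as EGFR, FGFR1, HRAS, LATS2, MDM4, NOTCH1 and SMAD2 dropped out, and the share over all protein-coding genes was 9.5%. With a score of at least 20 it was 16, without FGFR1, LATS2 and NOTCH1 (13.8% over all). Windows of 0.5, 2 and 5 kb gave 18, 21 and 23 genes, compared with 13.3%, 17.2% and 19.8% of all. Driver genes with an interval only in the body numbered 5 and fell to 2 with the window of 5 kb, because AKT1, TERT and TGFBR1 then counted as end genes. The looser run GTTNCC raised the number of driver promoters with a match from 0 to 13, as it allows any base at one position. The partner count ranged from 19 to 33. Counting only intervals with no other protein-coding gene end within 1 kb, or whose nearest end was their own, left 17 driver genes, without ARID1A and TGFBR2.

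No paired analysis was possible because the only peak list comes from a single ChIP library. A search for motifs in the intervals themselves was not run, for want of a genome sequence. As read depth is unknown, the list does not show whether the 31 genes with no interval had weak occupancy.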

Other observations

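For several driver genes without an interval, the nearest interval lay close to an end of another gene. The interval nearest to STK3 scored 73 (rank 93) and was 57 bp from an end of OSR2, 1.89 kb outside STK3. Beside ERBB2, an interval with a score of 64 (rank 218) lay 281 bp from an end of GRB7, an adaptor gene that is often amplified together with ERBB2, at 9.0 kb from ERBB2. The interval nearest to CDKN2A scored 42 and lay 236 bp from an end of CDKN2B, which encodes a related inhibitor of the cell cycle, at 13.75 kb. FGF19 had its nearest interval, with a score of 47, at 64 bp from an end of LTO1. That of STK4 scored 22 and lay 217 bp from an end of TOMM34. The interval nearest to BRAF scored 17 and lay 149 bp from an end of ADCK2, at 40.23 kb. For TSC2, the nearest interval scored 37 and was 1371 bp from an end of NTHL1, at 6.79 kb. These are positions in the list only, and other genes may lie between. Whether any of these intervals bears on the driver gene named with it was not tested.

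At SMAD3, STAT3, EGFR and HRAS, the lines of a repeated interval carried unlike scores. These were 71 and 35 at SMAD3, 60 and 45 at STAT3, 24 and 13 at EGFR, and 25 and 24 at HRAS. Another SMAD3 interval, centred 908 bp after the start, had 24 and 20. Taking the lowest line in place of the highest left the median score of the driver gene end intervals at 29.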
